A study of Mus musculus with 16 samples.

Results

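The genes described here make, sense, take up and export sterols in mIMCD3 cells, an epithelial line from the inner medullary collecting duct of mouse kidney. They were chosen as a list of 30 genes by role, matched by symbol in the table of transcripts per 1000000 (TPM) and by the same Ensembl identifier in the count table. Of these, 28 reached at least 1 count per 1000000 (CPM) in at least 4 of the 16 libraries and were tested, among 13234 genes in all. *Nr1h3* and *Abca1* stayed under that level. All 16 libraries came from wild type mIMCD3 cells grown for 10 days on permeable filters in a medium with serum, then kept for 3 or 6 days in doxycycline (DOX, 2 ug/mL) or in the vehicle DMSO, with 4 libraries in each of the 4 groups. DOX is the antibiotic used to switch tetracycline-inducible genes, and the comparison with vehicle asks what it does to cells that carry no such gene. The line was derived from an SV40 transgenic mouse, and all groups are of this single line. The labels number the libraries of a group as replicates and do not tie them to separate cultures, so p-values measure only the spread between these libraries, which may be technical.

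As background, cholesterol is built from acetyl-CoA through mevalonate, farnesyl diphosphate, squalene and lanosterol. When the endoplasmic reticulum runs low in sterol, SCAP escorts the factor SREBP2 (gene *Srebf2*) to the Golgi, where it is cut and released to switch on the enzymes of synthesis and the proteins of uptake; when sterol is plentiful, the INSIG proteins hold SCAP back. Excess sterol is turned to oxysterols, which activate the liver X receptors (LXR alpha, *Nr1h3*, and LXR beta, *Nr1h2*) and with them the export pumps ABCA1 and ABCG1. SREBP2 acts on promoters together with the factor NF-Y.

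Promoters of 5 members are shown because they hold the short motifs tied to this control and because their genes gave different calls under DOX. *Hmgcs1*, *Idi1* and *Insig1* fell at both times, *Srebf2* passed the test at 3 days and not at 6 days, and *Mvk* passed at neither time. The difference between the times did not pass for *Srebf2*. Each run gives the 250 bases before a transcription start in RefSeq (GRCm38.p6), 5′ to 3′ on the strand of the gene, with matches to the sterol regulatory element core TCACNCCAC and to the NF-Y box CCAAT, on either strand, in capitals.
*Hmgcs1*, chr13:119690101-119690350, plus strand: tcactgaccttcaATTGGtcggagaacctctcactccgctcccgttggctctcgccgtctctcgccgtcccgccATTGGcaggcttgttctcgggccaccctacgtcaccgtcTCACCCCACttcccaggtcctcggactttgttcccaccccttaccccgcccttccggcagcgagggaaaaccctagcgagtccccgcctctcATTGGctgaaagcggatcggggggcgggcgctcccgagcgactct
*Idi1*, chr13:8885356-8885605, plus strand: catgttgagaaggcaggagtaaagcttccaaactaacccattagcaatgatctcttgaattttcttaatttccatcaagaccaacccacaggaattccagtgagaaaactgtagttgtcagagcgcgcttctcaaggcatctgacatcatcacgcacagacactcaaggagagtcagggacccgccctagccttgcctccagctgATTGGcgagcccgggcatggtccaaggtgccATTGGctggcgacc
*Insig1*, chr5:28071162-28071411, plus strand: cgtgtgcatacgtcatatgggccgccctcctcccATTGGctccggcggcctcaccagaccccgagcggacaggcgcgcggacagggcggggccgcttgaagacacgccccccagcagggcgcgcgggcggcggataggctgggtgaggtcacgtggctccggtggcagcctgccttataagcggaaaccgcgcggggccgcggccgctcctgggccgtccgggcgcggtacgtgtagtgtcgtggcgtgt
*Srebf2*, chr15:82147019-82147268, plus strand: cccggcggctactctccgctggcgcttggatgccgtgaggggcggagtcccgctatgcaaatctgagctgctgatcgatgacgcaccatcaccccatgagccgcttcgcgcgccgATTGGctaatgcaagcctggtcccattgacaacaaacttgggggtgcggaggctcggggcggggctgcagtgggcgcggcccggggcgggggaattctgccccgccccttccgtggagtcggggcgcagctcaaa
*Mvk*, chr5:114444019-114444268, plus strand: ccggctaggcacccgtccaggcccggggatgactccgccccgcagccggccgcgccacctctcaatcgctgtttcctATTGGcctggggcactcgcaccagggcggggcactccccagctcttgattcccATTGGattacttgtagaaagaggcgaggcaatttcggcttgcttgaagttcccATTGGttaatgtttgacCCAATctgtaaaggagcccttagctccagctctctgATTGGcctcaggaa
RefSeq windows of 250 bases before to 50 after a start were at hand for 24 of the 30 members, 33 windows in all, and not for *Fdps*, *Fdft1*, *Sqle*, *Stard4*, *Npc1* and *Abcg1*. The sterol element core was found in the window of *Hmgcs1* and in those of no other member, and 1.24% of all 32851 windows held it. The NF-Y box was found in at least 1 window of 19 of the 24 members and in 60.6% of their windows, beside 37.4% of all windows. LXR with its partner RXR binds a pair of AGGTCA repeats set 4 bases apart on the same strand. An exact copy of that pair was found in no member's window and in 0.0152% of all windows. Copies that differ from these letters were not searched. With an exact pair this rare, its absence cannot tell whether a member's window holds an LXR site. Counted in the full windows, NF-Y boxes numbered 5 for *Mvk*, 4 for *Hmgcs1*, 2 for *Idi1* and 1 each for *Insig1* and *Srebf2*. A box of *Hmgcs1* lies after the start and outside the bases shown. The relation of box number to the changes under DOX was not tested. A match is a run of letters and not a measured site, and sites outside these windows were not searched.

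Total counts per library ran from 16933343 to 23960860, so that 3 counts, the limit allowed by a count of 0, corresponded to 0.125 to 0.177 CPM. Such limits cover counting error only. Within each group, log2 CPM of any 2 libraries correlated at 0.981 to 0.992 across genes, which are not independent replicates. Of 6 epithelial markers all were abundant, with *Krt18* at 889 ± 34.7 TPM and *Epcam* at 218 ± 18.7 TPM over the 8 DMSO libraries (SD). The collecting duct markers *Aqp2*, *Aqp3* and *Avpr2* did not reach the level for testing, with *Aqp2* at 0 to 9 counts. The other collecting duct markers on the list of 5, *Gata3* and *Scnn1a*, both fell, *Gata3* by a log2 fold change of -0.74 and then -0.97 and *Scnn1a* by -1.05 and then -1.48 (edgeR adjusted p = 0.00847, 0.000253, 8.96e-06 and 2.13e-08). The summed TPM of the 5 was 6.24 to 8.09 in DMSO and 2.88 to 4.21 in DOX at 3 days, and 6.11 to 9.29 against 3.04 to 4.76 at 6 days. The summed TPM of the 6 epithelial markers was 2020 to 2230 in DMSO and 1440 to 1740 in DOX at 3 days. At 6 days it was 2190 to 2450 against 1490 to 1680. Of the 6, 2 were lower at 3 days and 3 at 6 days, beside 7.22% and 11.6% of all tested genes. The summed TPM of 5 macrophage markers was 24.8 to 32.6 in DMSO and 10.8 to 16.6 in DOX at 3 days, and 28.4 to 31.6 against 15.3 to 16.6 at 6 days. *Csf1r* and *Cd68* made up that sum and both fell at both times, while the defining markers *Ptprc*, *Adgre1* and *Itgam* stayed under the level for testing, *Adgre1* with at most 1 count in any library. The part of these shifts in the sterol genes' changes was not tested. In RNA from whole cultures, fewer cells of a type and less RNA per cell cannot be told apart.

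In vehicle, the sterol genes spanned more than 3 orders of magnitude, measured as TPM, which allows for transcript length. *Fdps*, which makes farnesyl diphosphate, was the most abundant at 159 ± 11.9 TPM (SD over the 8 DMSO libraries, here and for the other levels). *Msmo1*, a methylsterol oxidase, at 63.3 ± 6.82 and *Srebf2* at 62.0 ± 5.09 TPM came next and did not differ beyond their spread, and neither did *Nr1h2* at 52.8 ± 5.71, *Insig2* at 47.6 ± 5.27 and *Srebf1* at 46.3 ± 3.27 TPM. The other mevalonate enzymes stood at 38.8 ± 5.01 for *Hmgcs1*, 26.5 ± 1.91 for *Pmvk*, 17.8 ± 1.88 for *Mvd*, 16.6 ± 2.55 for *Idi1*, 14.9 ± 1.57 for *Acat2* and 12.1 ± 0.645 TPM for *Mvk*. The later enzymes ran from *Sqle* at 30.1 ± 3.73, *Cyp51* at 25.4 ± 2.91, *Fdft1* at 24.8 ± 2.89, *Sc5d* at 20.5 ± 1.77 and *Lss* at 17.3 ± 1.70 to *Ebp* at 14.7 ± 1.88, *Tm7sf2* at 14.1 ± 1.78, *Nsdhl* at 8.31 ± 0.620, *Dhcr7* at 8.15 ± 0.797 and *Hsd17b7* at 3.50 ± 0.468 TPM. Among these later enzymes *Cyp51* and *Fdft1*, *Ebp* and *Tm7sf2*, and *Nsdhl* and *Dhcr7* were neighbours that did not differ beyond their spread, while *Hsd17b7* stood apart at the low end. *Insig1* stood at 32.4 ± 4.03, *Npc1* at 18 ± 1.55, *Scap* at 16.8 ± 1.64 and *Stard4* at 13.3 ± 0.904 TPM. The efflux side was low: *Mylip* had 2.47 ± 0.350, *Nr1h3* 0.508 ± 0.268, *Abcg1* 0.310 ± 0.0984 and *Abca1* 0.0202 ± 0.01 TPM. Of the LXR genes, that of LXR beta was thus far above that of LXR alpha in TPM.

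**Figure D1:**
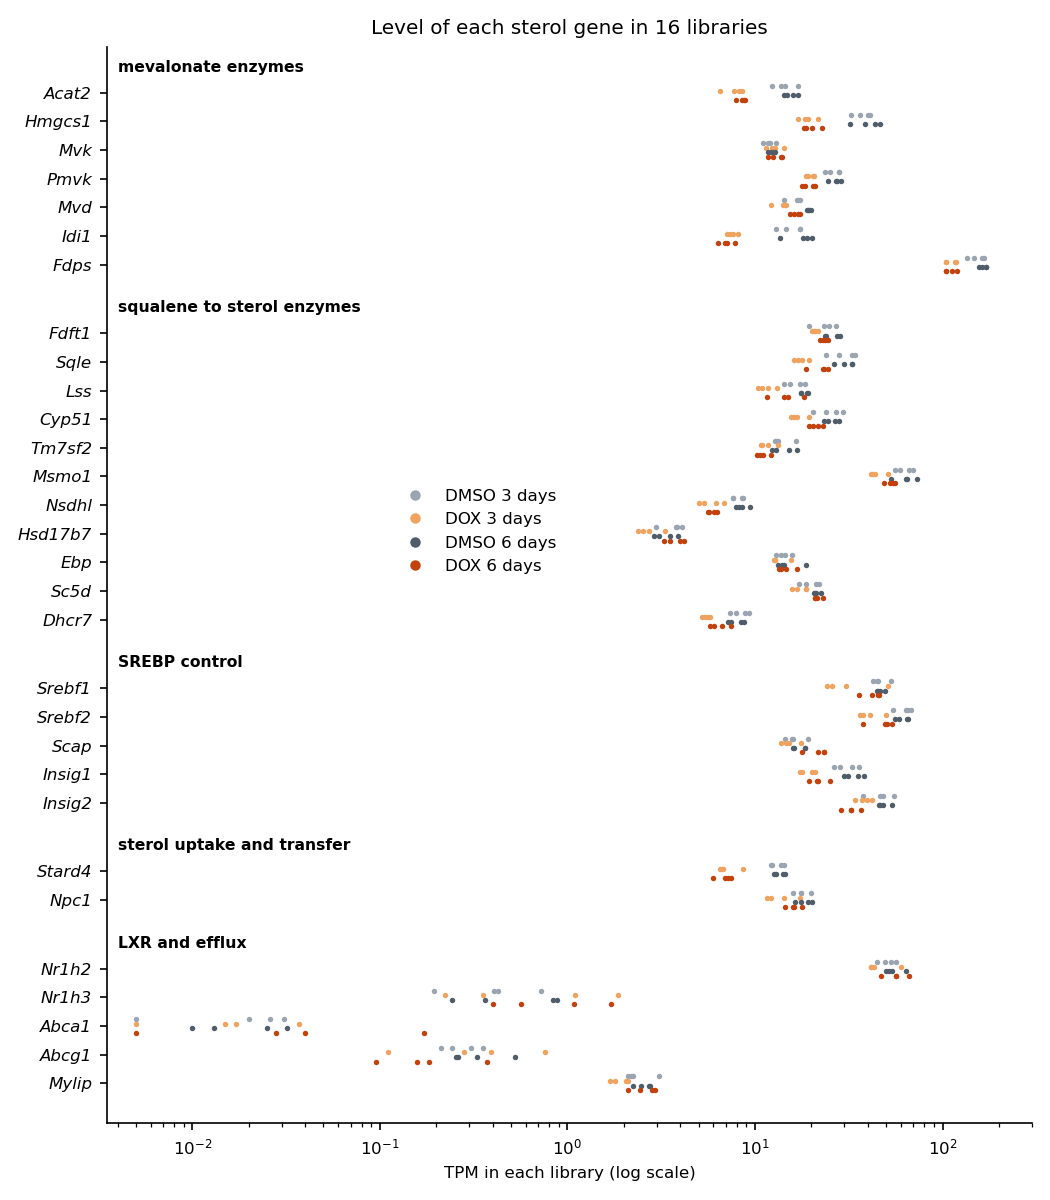
TPM of the 30 sterol genes in each of the 16 libraries on a log axis, 1 point per library, coloured by group and arranged by role. *Fdps* lay highest, and *Nr1h3*, *Abcg1* and *Abca1* lay near or under 1 TPM.

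DOX lowered part of the synthesis arm, and no synthesis enzyme passed the test upward at either time. At 3 days 8 of the 28 tested members fell and 0 rose, where 7.22% of all tested genes fell and 5.30% rose (edgeR, adjusted p under 0.05 for a change beyond 1.2-fold). At 6 days 10 of 28 fell and 1, *Scap*, rose, beside 11.6% and 10.0% of all tested genes. The median log2 fold change of the members was -0.24 at both times, against 0.003 at 3 days and -0.001 at 6 days over all tested genes. All 4 DOX libraries lay below all 4 DMSO libraries in CPM for 13 of 28 members at 3 days and 14 of 28 at 6 days, beside 19.8% and 20.9% of all tested genes. All 4 DOX libraries lay above all 4 DMSO libraries for 2 members at 3 days, each a synthesis enzyme, and 1 at 6 days. The share of all genes above was not counted. *Acat2*, *Hmgcs1*, *Idi1*, *Insig1* and *Stard4* passed at both times, 3 members at 3 days only, 6 at 6 days only and 14 at neither. The comparisons at 3 and 6 days use different libraries. In TPM the median over all genes was itself -0.149 at 3 days on the log2(TPM + 1) scale, and the members' median there was -0.40.

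**Figure D2:**
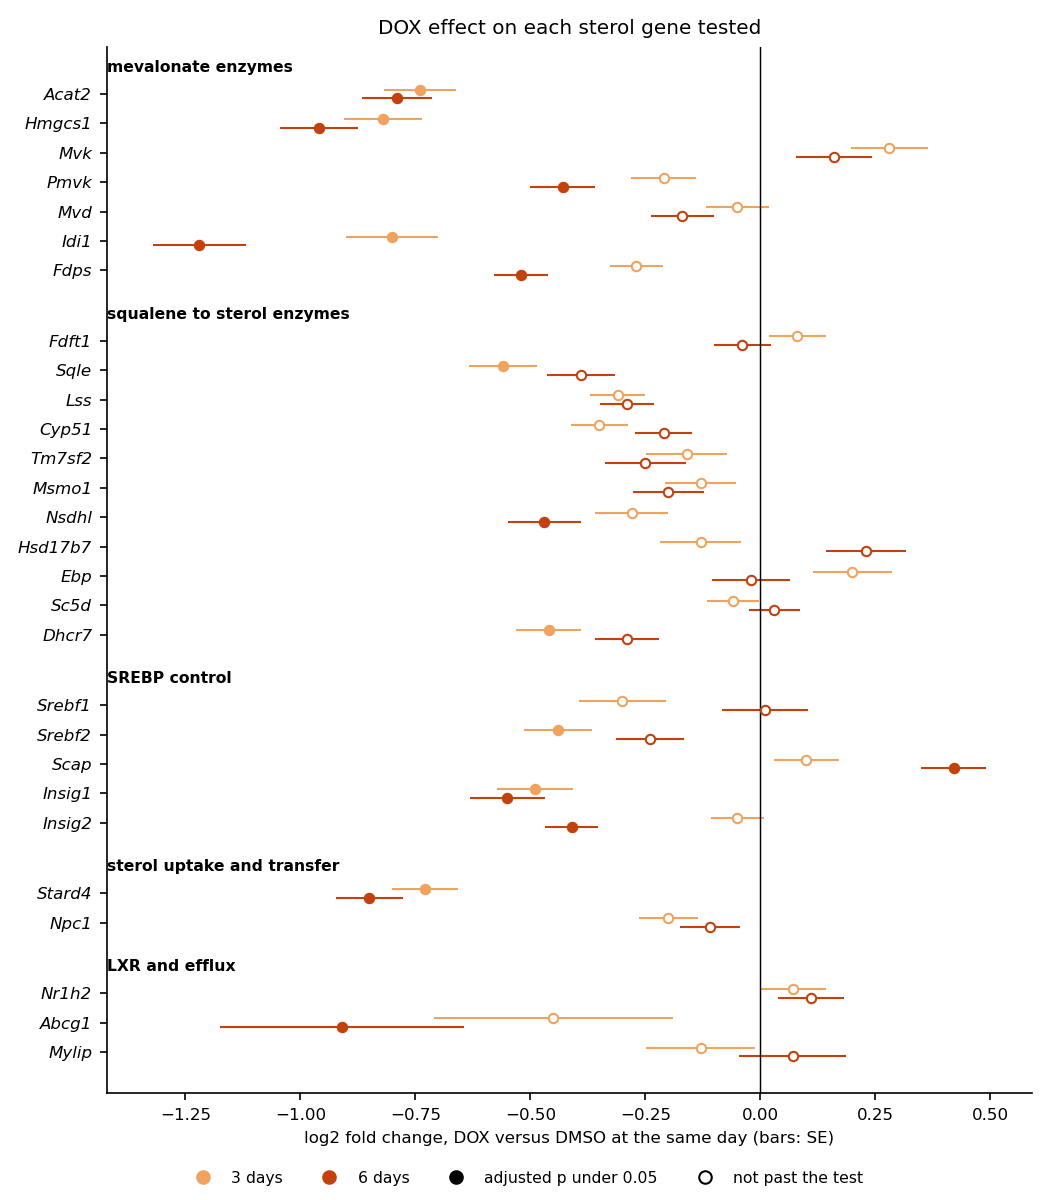
Log2 fold change of DOX against DMSO for the 28 tested members at 3 days (light) and 6 days (dark), with SE bars, and filled points for adjusted p under 0.05 (edgeR). *Idi1* at 6 days, at -1.22, lies farthest to the left, and *Scap* at 6 days, at 0.42, is the filled point to the right of 0.

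The largest falls were in the mevalonate stretch, in *Idi1* and *Hmgcs1*. Of the 7, 3 fell at 3 days and 5 at 6 days, beside 7.22% and 11.6% of all tested genes, and none passed upward. Their median log2 fold change was -0.27 and -0.52. *Acat2*, the cytosolic thiolase that joins acetyl-CoA units (chr17:12942890-12960747, minus strand), had 24.6, 25.0, 25.6 and 27.1 CPM in DMSO and 13.7, 16.3, 13.6 and 17.7 CPM in DOX at 3 days, and 24.6, 25.5, 26.4 and 27.4 against 14.9, 15.6, 14.9 and 14.8 CPM at 6 days. Every DOX library was below every DMSO library at both times, and the 4 DOX libraries at 6 days lay close together. Its log2 fold change was -0.74 (SE 0.0774, edgeR adjusted p = 1.64e-05) at the earlier time and -0.79 (SE 0.0769, adjusted p = 1.75e-06) at the later, so that it fell by 40.2% and fell by 42.1%. *Hmgcs1*, which adds the next acetyl-CoA to give HMG-CoA (chr13:119690379-119708260, plus strand), had 94.7, 95.8, 106 and 96.5 CPM in DMSO and 56.3, 53.2, 57.3 and 56.2 in DOX at 3 days, and 78.4, 105, 108 and 113 against 52.8, 56.6, 51.2 and 47.7 CPM at 6 days. The groups did not overlap, although replicate 1 of DMSO at 6 days was well below the other vehicle libraries. The log2 fold change was -0.82 (SE 0.0844, adjusted p = 8.9e-06) and then -0.96 (SE 0.0844, adjusted p = 2.1e-07), and the antisense gene *Gm48342* overlaps 557 bases of its exons.

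*Idi1*, the isomerase of isopentenyl diphosphate (chr13:8885501-8892451, plus strand), showed the largest fold change of the 28. It had 35.8, 36.3, 38.7 and 39.5 CPM in DMSO and 18.5, 22.9, 21.1 and 24.3 in DOX at 3 days, and 31.4, 43.7, 43.6 and 45.0 against 19.0, 18.7, 15.8 and 16.7 CPM at 6 days. DOX libraries were again all below vehicle, and replicate 1 of DMSO at 6 days again stood low. The log2 fold change was -0.80 (SE 0.1, adjusted p = 9.87e-05) and went on to -1.22 at 6 days (SE 0.101, adjusted p = 4.49e-08). *Fdps* (chr3:89093588-89101959, minus strand), the enzyme at the branch between sterols and other isoprenoids, had 135, 137, 148 and 137 CPM in DMSO and 108, 114, 113 and 127 in DOX at 3 days, and 152, 143, 144 and 137 against 102, 105, 103 and 92.1 CPM at 6 days. Its libraries were separated at both times, yet the 3-day change of -0.27 (SE 0.0582, adjusted p = 0.625) did not pass the 1.2-fold test and the 6-day change of -0.52 (SE 0.0583, adjusted p = 0.000248) did. *Gm43738*, a coding gene on the same strand, shares 1124 exonic bases with *Fdps*, so the split of reads between them is uncertain. *Pmvk*, the kinase that makes mevalonate diphosphate (chr3:89454541-89469013, plus strand), had 22.4, 22.1, 23.9 and 22.5 against 18, 19.5, 21.2 and 19.9 CPM at 3 days, and 24.3, 23.5, 20.0 and 22.2 against 16.6, 17.2, 15.8 and 17.4 CPM at 6 days. DOX was below vehicle in every library at both times. The log2 fold change was -0.21 (adjusted p = 0.978) and -0.43 (SE 0.0708, adjusted p = 0.02). Without DMSO replicate 1, DMSO replicate 2 or DOX replicate 3 of 6 days, that call was lost, with -0.39 (adjusted p = 0.0556), -0.41 (adjusted p = 0.0566) and -0.40 (adjusted p = 0.0615). It was also lost in DESeq2 (adjusted p = 0.186), in limma on log2(TPM + 1) and log2(TPM + 0.1) (0.123 and 0.0881), with no filter on low counts (0.168) and with an offset for gene length and GC content (0.0622). *Mvk* and *Mvd*, the kinase and the decarboxylase on either side of *Pmvk*, did not pass. The log2 fold changes at 3 and 6 days were 0.28 and 0.16 for *Mvk* and -0.05 and -0.17 for *Mvd*. At 3 days all DOX libraries of *Mvk* lay above all vehicle libraries in CPM. Without the fold threshold *Mvk* passed at 3 days (edgeR adjusted p = 0.00916).

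Of the 11 enzymes from squalene to cholesterol, 2 fell at 3 days and 1 at 6 days, beside 7.22% and 11.6% of all tested genes, and their medians were -0.16 and -0.21. The 6-day count is no more than the share of all genes. *Sqle*, squalene epoxidase (chr15:59315077-59331192, plus strand), had 61.2, 65.3, 73.7 and 71.7 CPM in DMSO and 44.7, 46.3, 44.0 and 49.2 in DOX at 3 days, and 58.5, 68.9, 71.5 and 70.5 against 46.2, 52.8, 55.6 and 51.3 CPM at 6 days. All DOX libraries were below vehicle at both times, with a narrower gap at 6 days. The change was -0.56 (SE 0.0745, adjusted p = 0.00113) and then -0.39 (SE 0.0738, adjusted p = 0.0654). It passed at 6 days without DMSO replicate 1 (-0.45, adjusted p = 0.00945) or without DOX replicate 3 (-0.43, adjusted p = 0.0374), and the difference between the times, 0.17 (SE 0.105, adjusted p = 0.264), did not pass. *Dhcr7*, a reductase of the last steps (chr7:143823145-143848410, plus strand), had 16, 14.8, 15 and 16.5 CPM in DMSO and 10.8, 11.3, 11.4 and 12.1 in DOX at 3 days, and 14.7, 14.9, 15.2 and 14.2 against 11.7, 12.9, 11.6 and 11.9 CPM at 6 days. Its groups were likewise apart at both times. The change was -0.46 (SE 0.0707, adjusted p = 0.0151) and then -0.29 (adjusted p = 0.401), and without DMSO replicate 4 the 3-day value was -0.42 (adjusted p = 0.056). That call was also lost in DESeq2 (adjusted p = 0.264), in limma on TPM (0.115 and 0.0594), with no filter (0.0908) and with a length and GC offset (0.0894). *Nsdhl*, a dehydrogenase of sterol demethylation on the X chromosome (chrX:72918557-72958514, plus strand), had 14.6, 13.4, 14.5 and 13.9 against 11.9, 10.5, 11.0 and 12.8 CPM at 3 days, and 14.4, 14.4, 13.1 and 15.3 against 10.7, 10.2, 10.8 and 9.67 CPM at 6 days. Here too no DOX library reached a vehicle library. The change was -0.28 (adjusted p = 0.545) and -0.47 (SE 0.0794, adjusted p = 0.0123). The later call was lost in DESeq2 (adjusted p = 0.14), in limma on TPM (0.188 and 0.105), with no filter (0.117) and with the offset (0.0617).

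The other 8 enzymes of this stretch did not pass at either time. *Lss*, lanosterol synthase, was at -0.31 and -0.29, and *Cyp51*, the lanosterol demethylase, at -0.35 and -0.21 (log2 at 3 and 6 days), with libraries separated in CPM for *Lss* at both times and for *Cyp51* at 3 days. *Tm7sf2*, a sterol reductase, was at -0.16 and -0.25, and *Msmo1* at -0.13 and -0.20. *Hsd17b7*, a sterol ketoreductase, was at -0.13 and 0.23, and *Sc5d*, a sterol desaturase, at -0.06 and 0.03. *Fdft1*, squalene synthase, was at 0.08 and -0.04 and *Ebp*, a sterol isomerase, at 0.20 and -0.02, and their 3-day values had the opposite sign in TPM. Over all 18 synthesis enzymes, 15 had a log2 fold change below 0 at each time, and 17 and 15 in TPM. The median over all tested genes in TPM at 3 days was itself -0.149 and -0.178 (pseudocount 1 and 0.1). At 6 days it was -0.0547 and -0.063. Of the 18, 5 fell at 3 days and 6 at 6 days, beside 7.22% and 11.6% of all tested genes.

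**Figure D3:**
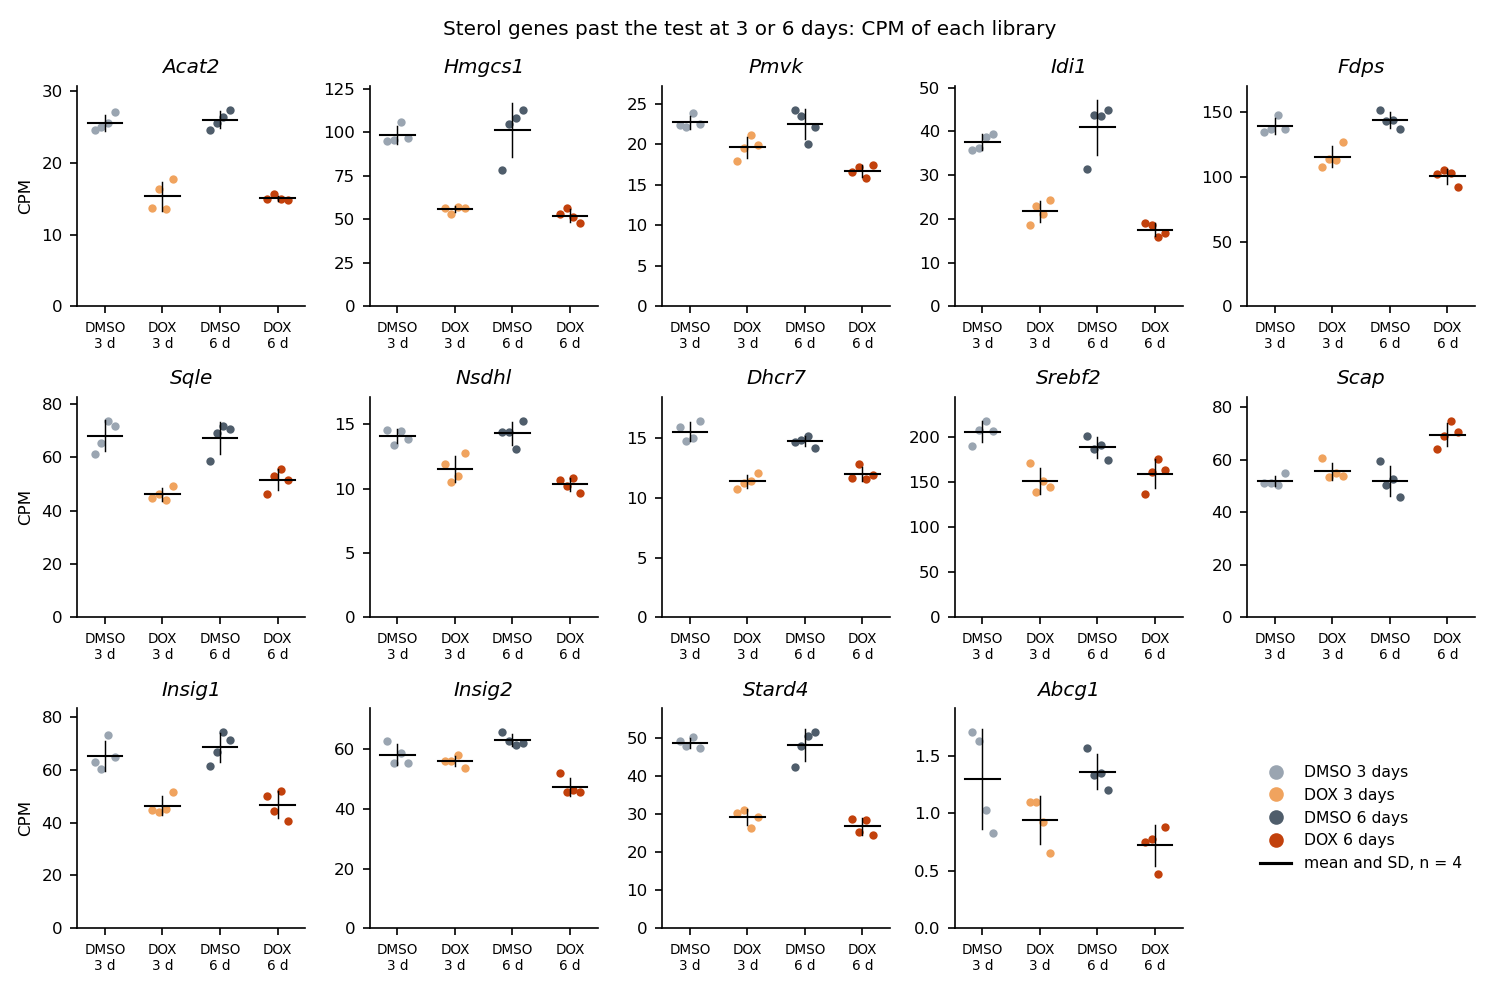
CPM of each library (axis from 0) for the 14 members past the test at 3 or 6 days, with the mean as a line and the SD as a bar (n = 4). *Hmgcs1*, *Idi1*, *Acat2* and *Stard4* show DOX libraries far below vehicle at both times, and *Insig2* and *Scap* part from vehicle at 6 days.

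The control genes of SREBP did not move as a block: 2 of 5 fell at 3 days, and at 6 days 2 fell and 1 rose. Over all tested genes 7.22% fell and 5.30% rose at 3 days, and 11.6% and 10.0% at 6 days. *Srebf2*, which encodes SREBP2 and is itself one of its targets (chr15:82147181-82205379, plus strand), had 190, 208, 218 and 206 CPM in DMSO and 171, 139, 151 and 144 in DOX at 3 days, and 201, 187, 191 and 174 against 137, 161, 176 and 163 CPM at 6 days. The groups were apart at 3 days and overlapped at 6 days, when DOX replicate 3 reached above the lowest vehicle library. The change was -0.44 (SE 0.0740, adjusted p = 0.0263) and then -0.24 (SE 0.0738, adjusted p = 0.726), and the difference of 0.20 (SE 0.104, adjusted p = 0.192) did not pass. The 3-day call rested on several libraries, since it was lost without DMSO replicate 3 (-0.41, adjusted p = 0.0797) or without DOX replicate 2 (-0.40, adjusted p = 0.0988), 3 (-0.44, adjusted p = 0.0513) or 4 (-0.42, adjusted p = 0.0716). DESeq2 (adjusted p = 0.222) and limma on log2(TPM + 1) (0.0537) did not call it either, and with the length and GC offset the change was -0.30 (adjusted p = 0.337). Without DOX replicate 1 of 3 days the difference between the times passed, at 0.26 (adjusted p = 0.0409). *Srebf1*, which encodes the related SREBP1 of fatty acid synthesis, did not pass, at -0.30 (adjusted p = 0.479) and 0.01, and without DOX replicate 1 its 3-day value was -0.42 (adjusted p = 0.0439).

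*Insig1*, an SREBP2 target whose protein retains SCAP (chr5:28071363-28078662, plus strand), had 62.8, 60.1, 73.3 and 64.9 CPM in DMSO and 44.8, 43.9, 45.2 and 51.6 in DOX at 3 days, and 61.5, 66.7, 74.4 and 71.2 against 49.9, 44.3, 51.8 and 40.7 CPM at 6 days. Vehicle and DOX libraries did not overlap. The change was -0.49 (SE 0.0817, adjusted p = 0.0128) and -0.55 (SE 0.0813, adjusted p = 0.0015), and without DMSO replicate 3 the 3-day value was -0.43 (adjusted p = 0.0625). DESeq2 did not call *Insig1* at 3 days (adjusted p = 0.109). *Insig2*, the paralog with the same retaining role (chr1:121304353-121332589, minus strand), had 62.8, 55.4, 58.8 and 55.5 against 56.1, 56.2, 57.9 and 53.8 CPM at 3 days, and 65.9, 62.9, 61.4 and 62.0 against 51.9, 45.7, 46.3 and 45.7 CPM at 6 days. The libraries were mixed at 3 days and apart at 6 days. Its change was -0.05 (SE 0.0577, adjusted p = 1) and then -0.41 (SE 0.0577, adjusted p = 0.0116), not called in DESeq2 (0.0605), in limma on log2(TPM + 1) (0.0508) or with no filter (0.141). *Scap*, the escort of SREBP (chr9:110333288-110384950, plus strand), had 51.1, 51.2, 50.3 and 54.8 against 60.5, 53.6, 54.8 and 53.9 CPM at 3 days, and 59.5, 50.3, 52.5 and 45.8 against 64.0, 69.0, 74.9 and 70.5 CPM at 6 days. DOX was above vehicle in all libraries at 6 days in CPM, while in TPM the groups overlapped. The change was 0.10 (adjusted p = 1), negative in TPM, and then 0.42 (SE 0.0703, adjusted p = 0.0234). The 6-day call was lost without DMSO replicate 2 (0.40, adjusted p = 0.0581), DMSO replicate 4 (0.37, adjusted p = 0.101) or DOX replicate 3 (0.38, adjusted p = 0.0828), in DESeq2 (0.193) and in limma on TPM, where it was 0.30 and 0.32. The gene model *5830462I19Rik* overlaps 985 exonic bases on the other strand.

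On the side of uptake and transfer, *Stard4*, a soluble carrier that moves cholesterol between membranes and a target of SREBP2, fell at both times. It had 49.2, 47.7, 50.1 and 47.4 CPM in DMSO and 30.3, 31.0, 26.4 and 29.1 in DOX at 3 days, and 42.3, 47.8, 50.5 and 51.6 against 28.7, 25.2, 28.5 and 24.5 CPM at 6 days. All DOX libraries lay well below all vehicle libraries. The change was -0.73 (SE 0.0719, adjusted p = 8.33e-06) and -0.85 (SE 0.0720, adjusted p = 1.91e-07), so that the gene fell by 39.8% and then fell by 44.4%. *Npc1*, which exports cholesterol from lysosomes, did not pass, at -0.20 and -0.11, with overlapping groups at both times.

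Among LXR and the efflux genes, none passed the test upward. Of the 5, 3 could be tested, with 0 past the test at 3 days and 1, *Abcg1*, lower at 6 days. Over all tested genes 7.22% fell and 5.30% rose at 3 days, and 11.6% and 10.0% at 6 days. With 3 genes, these counts cannot be told apart from those shares. *Abca1*, the pump that loads cholesterol onto apolipoproteins (chr4:53030787-53159895, minus strand), had 5, 1, 3 and 5 counts in DMSO and 3, 8, 1 and 3 in DOX at 3 days, and 2, 2, 5 and 4 against 1, 6, 9 and 7 counts at 6 days. These counts lie at or near the limit of 3, and a difference was not detectable at this depth. *Nr1h3* had 6 to 16 counts per library and was equally too low to compare. *Abcg1*, the pump that passes cholesterol to lipoprotein particles (chr17:31057675-31117988, plus strand), had 1.71, 1.63, 1.03 and 0.825 CPM in DMSO and 1.10, 1.10, 0.922 and 0.656 in DOX at 3 days, and 1.57, 1.33, 1.35 and 1.2 against 0.754, 0.780, 0.471 and 0.884 CPM at 6 days, from 10 to 39 counts per library. The groups overlapped at 3 days and were apart at 6 days in CPM, and overlapped at both times in TPM. The change was -0.45 (SE 0.260, adjusted p = 0.475), positive in TPM, and then -0.91 (SE 0.265, adjusted p = 0.0287), which was lost without DMSO replicate 1 (-0.84, adjusted p = 0.0651) or DOX replicate 3 (-0.75, adjusted p = 0.102). It was also lost in DESeq2 (adjusted p = 0.201) and with no filter (0.0837), and limma on TPM gave -0.16 and -0.59 (adjusted p = 1 and 0.683). *Nr1h2* at 0.07 and 0.11 and *Mylip*, a ligase that removes lipoprotein receptors and a target of LXR, at -0.13 and 0.07 did not pass, and the 3-day value of *Nr1h2* was negative in TPM.

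The DOX effect differed between 6 and 3 days for 4 of the 28 members, where 17.0% of all tested genes differed (edgeR, adjusted p under 0.05, no fold threshold), so the members' share was near that of all genes. *Idi1* fell further at 6 days by a log2 difference of -0.42 (SE 0.142, adjusted p = 0.0445), *Fdps* by -0.25 (SE 0.0823, adjusted p = 0.0397) and *Insig2* by -0.36 (SE 0.0816, adjusted p = 0.00622). *Scap* moved up by 0.32 (SE 0.0998, adjusted p = 0.0332). The *Insig2* difference passed whichever library was left out. Those of *Idi1*, *Fdps* and *Scap* were lost in 13, 11 and 10 of the 16 fits that left out 1 library, with adjusted p up to 0.103, 0.0976 and 0.0805. The other members called at 1 time showed no difference past the test, at -0.22 (adjusted p = 0.138) for *Pmvk*, -0.18 (adjusted p = 0.274) for *Nsdhl*, 0.16 (adjusted p = 0.274) for *Dhcr7* and -0.46 (SE 0.371, adjusted p = 0.417) for *Abcg1*. Between DMSO at 6 days and at 3 days 0 members were called by edgeR, and 0 of all tested genes, or 0%, with 172 genes at an unadjusted p under 0.05 and 0 called by DESeq2. The members' log2 differences in vehicle ran from -0.13 to 0.19.

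Other genes of sterol metabolism, 38 listed and 34 tested, gave counts in both directions. At 3 days 3 rose and 2 fell, beside 5.30% and 7.22% of all tested genes, with a median log2 fold change of 0.05. At 6 days 7 rose and 2 fell, beside 10.0% and 11.6%, with a median of 0.16. *Soat2*, which esterifies cholesterol for storage, had 2.08, 2.46, 2.63 and 2.43 CPM in DMSO and 6.11, 6.92, 6.78 and 6.77 in DOX at 3 days, and 2.41, 1.84, 2.55 and 1.47 against 7.04, 7.06, 7.68 and 7.22 CPM at 6 days. The libraries of the treatments were far apart at both times. The change was 1.46 (SE 0.135, adjusted p = 3.13e-07) and 1.82 (SE 0.137, adjusted p = 3.91e-09). *Soat1*, on the same list, was more abundant in DMSO (21.6 against 1.31 TPM) and passed at neither time. Its mean went from 58.0 to 52.7 CPM at 3 days and from 53.5 to 54.9 CPM at 6 days. In TPM its 6-day mean went from 20.4 to 26.7. *Erlin1*, a membrane protein of the endoplasmic reticulum tied to sterol-regulated degradation, rose from 81.5 to 131 CPM at 3 days (0.69, SE 0.0519, adjusted p = 4.13e-07) and from 80.9 to 173 CPM at 6 days (1.09, SE 0.0519, adjusted p = 1.43e-11). Its rise was larger at 6 days by 0.41 (SE 0.0730, adjusted p = 0.00143).

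*Rnf145*, a ubiquitin ligase of the same membrane, fell from 115 to 74.0 CPM at 3 days (-0.63, SE 0.0748, adjusted p = 0.000182) and from 104 to 60.1 CPM at 6 days (-0.79, SE 0.0754, adjusted p = 1.3e-06). *Coq2*, which attaches the isoprenoid tail of ubiquinone, rose by 32.3% at 3 days (adjusted p = 0.0351) and 38.9% at 6 days (adjusted p = 0.002). Over all tested genes 5.30% rose and 7.22% fell at 3 days, and 10.0% and 11.6% at 6 days. In lists this short, a count of 1 cannot be told apart from these shares. By list, SREBP cleavage and sterol-regulated degradation had 1 higher and 1 lower of 7 at 3 days, and 2 higher and 1 lower at 6 days, with *Mbtps2*, a protease that cuts SREBP, at 0.46. Sterol ester synthesis and hydrolysis had 1 of 4 higher and then 2 of 4, the further one being the lysosomal lipase *Lipa* at 0.52. The isoprenoid branch had 1 of 9 higher at 3 days, and 1 higher and 1 lower at 6 days, the lower one being the farnesyltransferase subunit *Fnta* at -0.40. Among 7 other sterol carriers *Gramd1a*, which brings sterol from the plasma membrane, rose at 6 days by 0.47. Among 3 other lipoprotein receptors *Lrp8* fell at 3 days by 0.44 on the log2 scale. Of the LXR partners and other LXR targets, 4 of 5 were tested and *Rxrb*, an LXR partner, rose at 6 days by 0.64. The listed oxysterol-making enzymes were not tested, as all were under the CPM level.

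**Figure D4:**
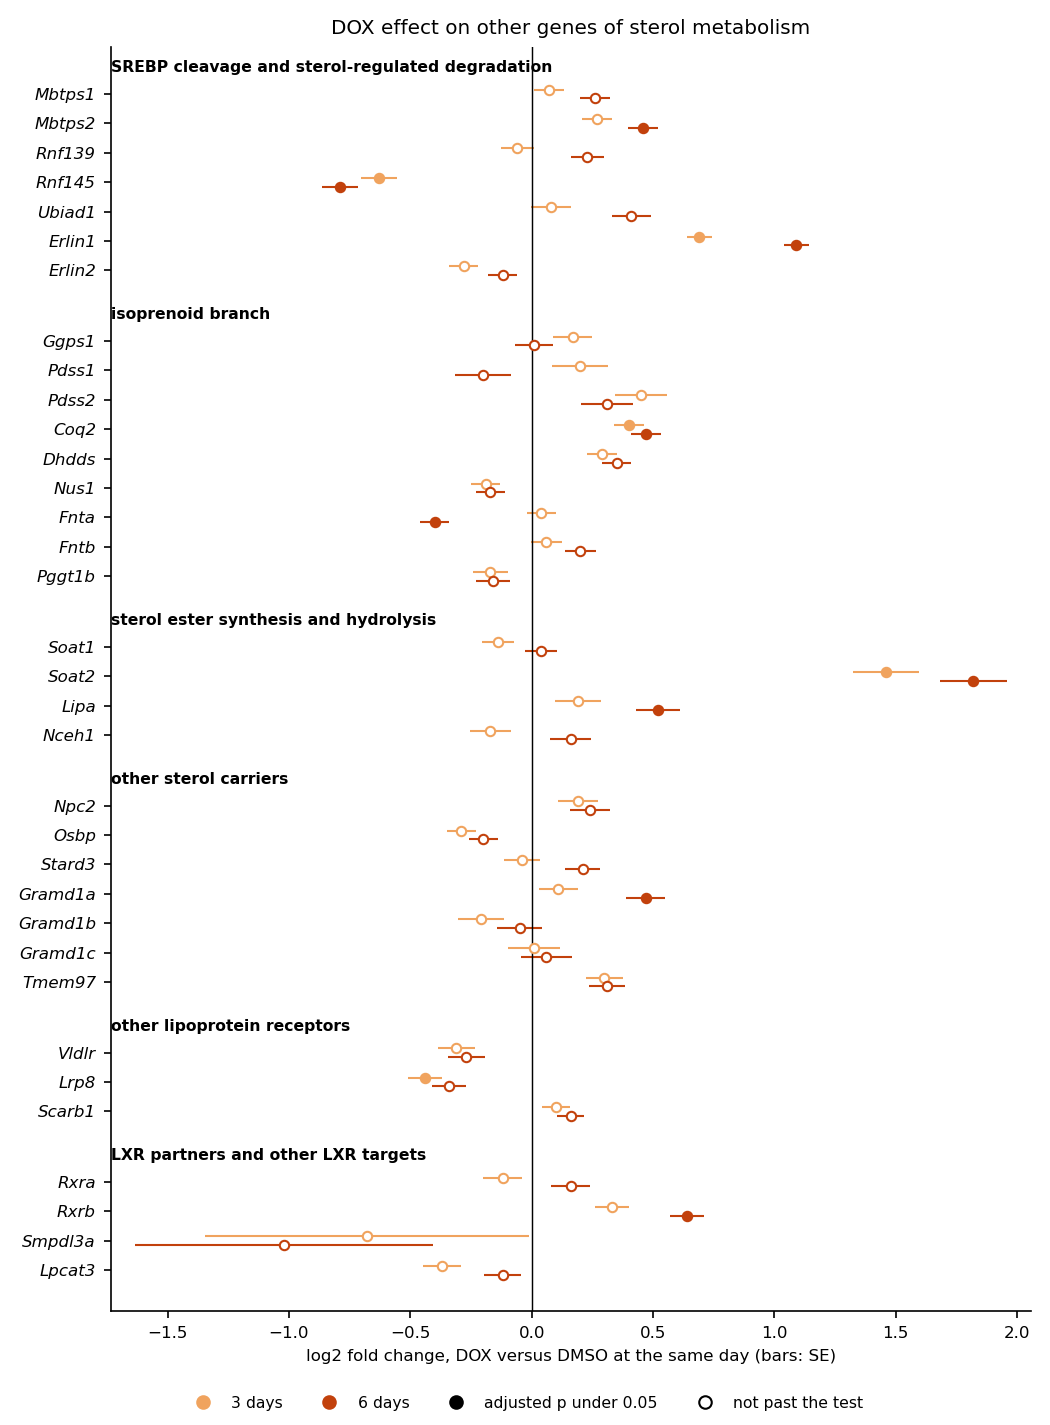
Log2 fold change of DOX against DMSO for the 34 other tested genes at 3 days (light) and 6 days (dark), with SE bars, and filled points for adjusted p under 0.05 (edgeR). *Soat2* and *Erlin1* lie farthest to the right and *Rnf145* is the filled point farthest to the left.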

How the data were processed

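The authors deposited 2 gene-level tables for the 16 libraries. The estimated counts come from salmon (version 0.14.10 in the submitters' processing notes), were not normalized by the authors and hold fractions, since reads shared by transcripts are split among them. The TPM values, scaled by the authors to transcript length and library total, were deposited beside them for 53354 of the 54393 genes. The libraries were directional, paired-end and made from poly(A) RNA. Whether salmon used strand is not given in the sources used here.

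Here the estimated counts were rounded, genes under 1 CPM in more than 12 of the 16 libraries were left out, and TMM-scaled libraries were fitted with 1 mean per group (edgeR 4.0.16 in R 4.3.3, robust quasi-likelihood). DOX was compared with DMSO by glmTreat beyond 1.2-fold and the effects of the times by glmQLFTest, two-sided, with Benjamini-Hochberg adjustment over 13234 genes and a limit of 0.05. The SE is the log2 fold change divided by the root of the quasi-likelihood F. The fits were tested on simulated data. Alternatives were DESeq2 1.42.0, limma 3.58.1 on log2(TPM + 1) and log2(TPM + 0.1), other filters, scalings, thresholds and offsets, a replicate block and each library left out. Groups came from the labels. The results of 1 further listed gene are not reported here. Members, lists and motifs were chosen with earlier results of these data known. Every tested member is named, with values per library for those called and for *Srebf2*, *Insig1*, *Abca1* and *Abcg1*. Of the other pathway genes, those called at both times are named by rule. *Mbtps2*, *Lipa*, *Fnta*, *Gramd1a*, *Lrp8*, *Rxrb* and *Soat1* were named after their values were seen. Gene positions and exon overlaps are from GENCODE M21 (GRCm38), where reads of overlapping genes may be split.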

Additional observations from a re-analysis of the deposited data

Results flagged for a closer look

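Within each group of 4 libraries, the highest or lowest CPM of each of the 28 tested members was checked against the rest by Dixon's ratio. Of 112 such groups, 10 held a library set apart, where chance flags about 1 in 20. In DMSO at 3 days, replicate 3 was high for *Hmgcs1* (106 against 94.7 to 96.5 CPM) and *Fdps* (148 against 135 to 137) and low for *Npc1* (65.6 against 69.7 to 70.2). In DMSO at 6 days, replicate 1 was low for *Idi1* (31.4 against 43.6 to 45.0) and high for *Npc1* (71.7 against 64.8 to 65.4). In DOX at 3 days, replicate 1 was low for *Fdft1* (52.0 against 56.6 to 56.9) and high for *Scap* (60.5 against 53.6 to 54.8), and replicate 4 was high for *Insig1* (51.6 against 43.9 to 45.2). In DOX at 6 days, replicate 2 was high for *Acat2* (15.6 against 14.8 to 14.9) and replicate 1 for *Insig2* (51.9 against 45.7 to 46.3). None of these values was left out of the main results.

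For 4 members the DOX effect itself differed between the times by the edgeR test of that difference. Over all tested genes 17.0% differed, and the members' share was near that. The log2 difference between 6 and 3 days was -0.42 (adjusted p = 0.0445) for *Idi1*, -0.25 (adjusted p = 0.0397) for *Fdps*, 0.32 (adjusted p = 0.0332) for *Scap* and -0.36 (adjusted p = 0.00622) for *Insig2*. Those of *Idi1*, *Fdps* and *Scap* were lost in 13, 11 and 10 of the 16 fits that left out 1 library. That of *Insig2* passed in all of them.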

How the results depend on the processing

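*Acat2*, *Hmgcs1*, *Idi1*, *Sqle* and *Stard4* at 3 days and *Acat2*, *Hmgcs1*, *Idi1*, *Fdps*, *Insig1* and *Stard4* at 6 days passed under all 27 alternatives. The count of members called at 3 days, 8, became 5 in DESeq2 and 16 without the fold threshold, and at 6 days 11 became 6 in DESeq2, 6 and 7 in limma on log2(TPM + 1) and log2(TPM + 0.1), 20 without the threshold and 7 with no filter. The 4 differences between times became 0 in both limma fits, 0 with a 1.2-fold threshold and 1 under the replicate block. With 1 library left out the counts were 6 to 9, 9 to 11 and 1 to 6. Over all genes, 1658 calls at 3 days became 1019 in DESeq2, 701 and 909 in limma and 5982 without the threshold; 2856 at 6 days became 1307 and 1527 in limma and 6702; 2252 differences became 659 and 631 in limma and 183 with the threshold, and 1369 to 3787 with 1 library left out. In vehicle, 0 became 62 without the threshold and 6 with no filter, with 0 members called in any. The cause of these shifts was not tested.

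Some values turned sign, none of them past the test as reported. In limma at 3 days (pseudocount 1, then 0.1) *Fdft1* came to -0.17 and -0.17, *Ebp* -0.08 and -0.09, *Scap* -0.09 and -0.10, *Nr1h2* -0.14 and -0.14, and *Abcg1* 0.10 and 0.20. The median over all tested genes in these limma fits was itself -0.149 and -0.178 at 3 days. At 6 days that median was -0.0547 and -0.063. At 6 days *Ebp* came to 0.02 with no filter, 0.03 with a length and GC offset, with or without the block, and -0.11 to 0.05 with 1 library left out, and *Srebf1* to -0.13 and -0.14 in limma, -0.0062 with the stricter filter, -0.07 with the offset, with or without the block, and -0.04 to 0.09 with 1 library left out. The *Srebf2* difference came to -0.0031 with the offset and -0.0052 with the block as well.

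Deviations from the group mean of equally numbered DMSO and DOX libraries of the same day correlated at -0.288 to 0.178. These values gave no sign that the numbers pair the libraries, but they cannot show that no pairing existed. Pairing between the days was not looked at. Under the replicate block the differences of *Idi1* (adjusted p = 0.0501), *Fdps* (0.069) and *Scap* (0.0517) no longer passed and *Sqle* at 6 days did (0.0358); no other call of a member changed. At this depth *Abca1* and *Nr1h3* could not be compared, and *Abcg1* rests on 10 to 39 counts.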
